A study of Mus musculus with 6 samples.

Results

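A set of 10 genes that encode proteins of the Z-disc or of the muscle response to stretch were followed in vastus lateralis, a part of the quadriceps, of mice that overexpress FRG1 and of wild type mice. These were Ankrd1, Ankrd2, Ankrd23, Csrp3, Fhl1, Fhl2, Fhl3, Mustn1, Actn2 and Actn3, and every array probe annotated to them was taken. The annotation gave 14 probes for 9 of them and none for Fhl3, which was therefore not analysed here. The genes were chosen by function with earlier results of this comparison in view, and their probes were selected on detection p, the chance of such a signal among negative control beads. Probes with a detection p under 0.05 on 3 or more of 6 arrays were kept. This left 13 of the 14 member probes, among 19563 retained of 46632 probes in all, and all 9 genes kept at least 1 probe. The retained probe nearest the limit was the second Fhl1 probe, detected on 3 of 3 FRG1 arrays and 1 of 3 WT arrays (detection p up to 0.107), so that it passed mainly through the group in which it was brighter. The probe that failed was the second Fhl2 probe, whose lowest detection p was 0.10. The other 12 member probes were detected on all 6 arrays.

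The FRG1 group held 3 samples (V871, V873 and V874) from mice labelled as overexpressing FRG1, the FSHD region gene 1 which lies close to the repeats tied to facioscapulohumeral muscular dystrophy. The WT group held 3 wild type samples (V872, V906 and V923). All 6 were labelled as C57Bl/6J females aged 4 weeks, and no other allele or agent is named. The labels name neither the promoter that drives the transgene nor its species, and these sample numbers are not said to mark litters, so every p-value reflects the spread among these samples alone, which may be technical.

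The Z-disc is the plate at which thin filaments of neighbouring sarcomeres are anchored and cross-linked. Alpha-actinins form the cross-links, and LIM-domain and ankyrin repeat proteins dock on them, on titin or on the costamere and can also enter the nucleus, where they act on transcription. Several of these genes are known to be induced when muscle is stretched, overloaded, denervated or injured.

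Summed signal lay between 11232852 and 13062182 intensity units on FRG1 arrays and between 10537335 and 12759000 on WT arrays, and between 19183 and 20000 probes were detected on FRG1 arrays against 17957 to 19076 on WT arrays. The groups lay apart on principal component 1 (56.9% of variance). On component 2, with 19.2%, WT sample V923 (-27.8) stood apart from WT samples V872 (14.9) and V906 (21.2), so values without it are given below. The array's Frg1 probe was detected on 0 of 3 FRG1 arrays and on none of the WT arrays, so it does not check the labels. Of 10 skeletal muscle markers 7 were measured, none of the 8 with a probe was undetected on all arrays, and their summed signal was 108780 to 124420 in FRG1 and 122860 to 128980 in WT muscle. Of these 7 markers 0 were higher and 3 lower, led by the calcium release channel Ryr1 and the glycogen phosphorylase Pygm. Ryr1 was -1.05 ± 0.12 (SE, on the log2 scale, limma adjusted p = 0.000513) on its brightest probe. It was called on 2 of its 4 retained probes and was -0.42 with the 4 averaged. Pygm was -0.74 ± 0.14 (limma adjusted p = 0.00667).

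Of the 9 genes measured, each read by its brightest retained probe, 5 were higher in FRG1 muscle (Fhl2, Csrp3, Mustn1, Ankrd1 and Fhl1), 2 were lower (Ankrd23 and Actn3) and 2 did not pass the threshold (Ankrd2 and Actn2). The threshold was an adjusted p of 0.05 in limma, fitted and adjusted over all retained probes. Over all 10287 genes tested 7.53% were higher and 7.23% lower. The 3 FRG1 values and the 3 WT values did not overlap in 8 of the 9 genes, against 36.6% of all genes. Fhl2, Csrp3, Mustn1 and Ankrd1 were at least 2-fold higher and past the threshold, as were 1.79% of all genes. The median log2 fold change was 0.56 over the 9 genes and -0.03 over all genes. Since the genes were brought together with results of this comparison known, these shares describe the set and support nothing about it. In whole muscle, a change in the number of cells that make a transcript and a change in the RNA made per cell cannot be told apart.

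**Figure D1:**
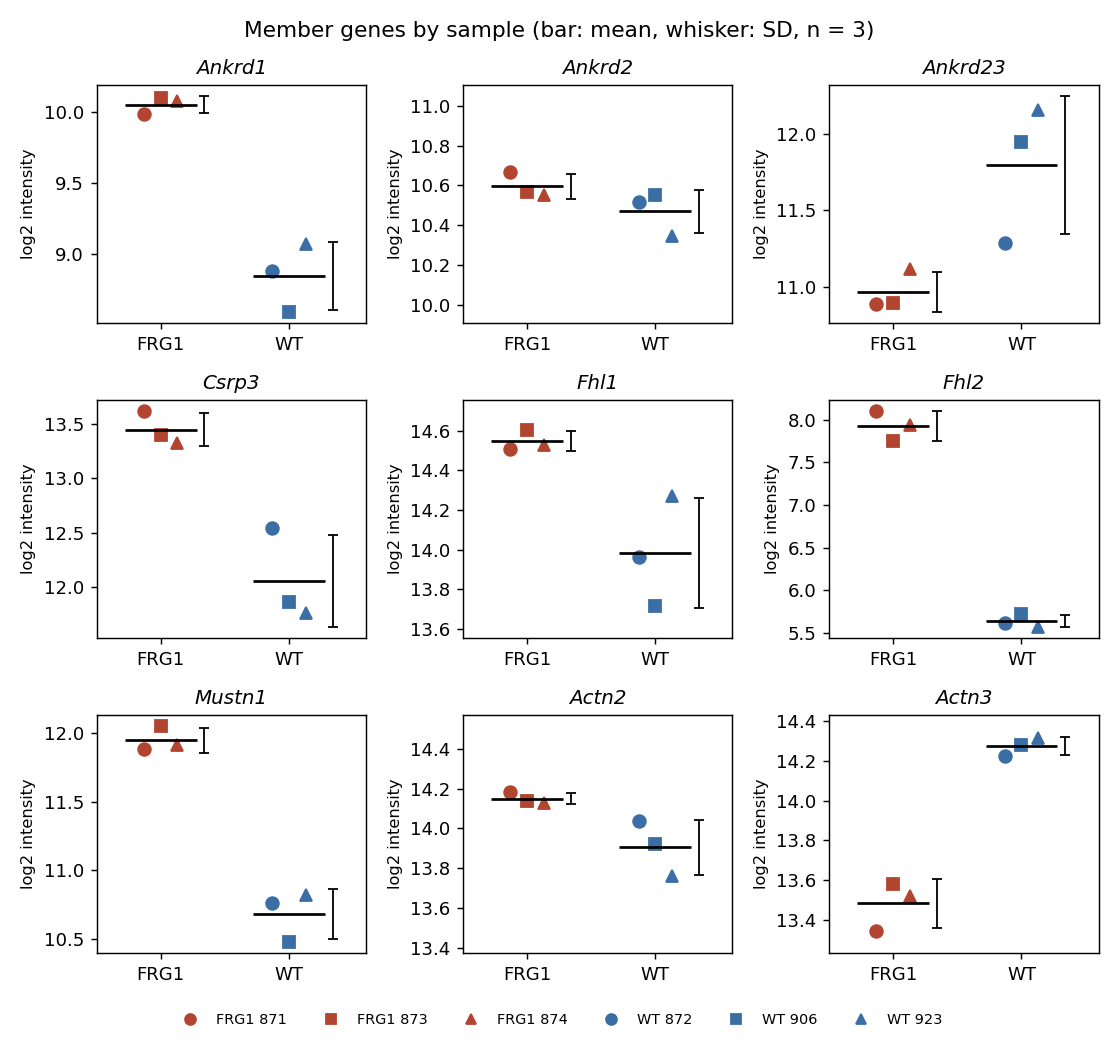
Normalized log2 intensity (vertical axes, 1 panel per gene with its own range) of the brightest retained probe of 9 member genes in 3 FRG1 samples (left) and 3 WT samples (right), with the mean as a bar and the SD as a whisker. Fhl2, Csrp3, Mustn1, Ankrd1 and Fhl1 lie higher in FRG1, Ankrd23 and Actn3 lie lower, Ankrd2 reaches the same value in both groups, and Actn2 does not overlap but missed the threshold.

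The muscle ankyrin repeat proteins, which bind titin in the I-band and shuttle to the nucleus, differed among themselves. Ankrd1 encodes a member best known from heart, and in skeletal muscle it is induced by stretch and denervation. Its probe ILMN_2625451 read log2 values of 9.98, 10.10 and 10.07 in FRG1 samples V871, V873 and V874, against 8.88, 8.59 and 9.07 in WT samples V872, V906 and V923. Every FRG1 value was above every WT value, with a gap of 0.91 between the groups. Ankrd1 was 2.31-fold higher (log2 fold change 1.21 ± 0.14, SE, n = 3 each, limma adjusted p = 0.000637), and 1.32 without WT sample V923.

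Ankrd2, the member linked to slow fibres and to stretch, read 10.67, 10.57 and 10.55 in FRG1 muscle, against 10.51, 10.55 and 10.34 in WT muscle. The groups touched at a shared value, and the log2 fold change of 0.13 ± 0.12 (SE, n = 3 each) did not pass in limma (adjusted p = 0.536). Its 95% interval ran from -0.14 to 0.39, which leaves out a change of the size seen for Ankrd1.

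Ankrd23, another member, known also as DARP, read 10.88, 10.89 and 11.12 in FRG1 muscle, against 11.29, 11.95 and 12.15 in WT muscle. The FRG1 values were close together and all lower, while WT sample V872 lay nearer to them than to the other WT samples. Ankrd23 was 1.78-fold higher in WT (log2 fold change -0.83 ± 0.21, SE, n = 3 each, limma adjusted p = 0.0253). It lost the call without FRG1 sample V871 (adjusted p = 0.0908), without FRG1 sample V873 (0.0962) and without WT sample V906 (0.0823), and kept it without WT sample V923 (-0.65, limma adjusted p = 0.0410).

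Because these genes belong to related groups, the log2 difference between 2 of them was also taken within each array and its shift between the groups was tested. Probes differ in how brightly they read, so only the shift carries meaning, not the difference itself. The difference of Ankrd1 minus Ankrd23 shifted by 2.04 ± 0.29 (SE) between FRG1 and WT muscle, that of Ankrd1 minus Ankrd2 by 1.08 ± 0.21, and that of Ankrd2 minus Ankrd23 by 0.96 ± 0.32. In each pair the 3 FRG1 and 3 WT values did not overlap. The two-sided exact permutation p was 0.1 for each, which is the smallest that 20 divisions of 3 against 3 samples allow, and 0.1 after adjustment over the 5 pairs measured, so the design cannot reach 0.05.

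The bases before the annotated transcript start of Ankrd1 and Ankrd2, which lie on the same chromosome, are shown because they differ in exact matches to the motifs marked below. Ankrd1 passed the threshold and Ankrd2 did not, and a part of these motifs in that was not tested. Sequences are the 250 bases before the start, 5′ to 3′ on the gene's strand, from RefSeq on GRCm38.p6, at chr19:36119845-36120094 (minus strand) for Ankrd1 and chr19:42035777-42036026 (plus strand) for Ankrd2. Capitals mark the MCAT motif CATTCC, read on both strands (GGAATG on the other), in Ankrd1, and TATAAA in Ankrd2.
Ankrd1: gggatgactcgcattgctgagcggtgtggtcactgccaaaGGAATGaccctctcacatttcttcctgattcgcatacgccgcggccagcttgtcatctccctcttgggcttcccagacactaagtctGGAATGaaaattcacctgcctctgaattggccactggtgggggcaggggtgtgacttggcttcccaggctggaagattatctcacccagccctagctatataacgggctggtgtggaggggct
Ankrd2: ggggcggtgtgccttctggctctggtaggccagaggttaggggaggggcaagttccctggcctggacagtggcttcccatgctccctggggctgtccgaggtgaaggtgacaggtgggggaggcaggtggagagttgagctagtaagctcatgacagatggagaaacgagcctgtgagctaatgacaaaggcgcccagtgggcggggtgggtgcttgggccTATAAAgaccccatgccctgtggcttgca
The Ankrd1 window held 2 MCAT matches, which begin 210 and 123 bases before the start, and the Ankrd2 window held 0. Among 32851 promoter windows of the same length 12.6% held MCAT, the motif read by TEAD factors. Of the 9 members with a window in the table, 2 held it, Ankrd1 and the window of 1 of the 2 starts of Ankrd23, which was lower in FRG1 muscle. The E-box CANNTG, read by myogenic factors among others, was in windows of 7 of these 9 members and in 66.2% of all windows. Both windows shown held it, unmarked, with 1 match in Ankrd1 and 3 in Ankrd2. A member with 2 starts counts if either window holds the motif, so member counts and shares of all windows are in different units. The 9 include Fhl3, which has a window but no probe. The sequence TATAAA was found in Ankrd2 among the members and in 7.59% of all windows. Only these exact letters were searched. The Ankrd1 window held the similar sequence tatataa, unmarked, near the start of the transcript, so the marks do not show that it lacks such an element.

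The LIM-domain members measured, Csrp3, Fhl2 and Fhl1, were higher in FRG1 muscle but by different amounts. Csrp3, the muscle LIM protein, anchors at the Z-disc, acts as a cofactor of myogenic factors and is more abundant in slow than in fast fibres. Its brighter probe ILMN_2742068 read 13.62, 13.41 and 13.32 in FRG1 muscle, against 12.54, 11.86 and 11.76 in WT muscle. The highest WT value was that of sample V872 and still lay 0.78 below the lowest FRG1 value. Csrp3 was 2.64-fold higher (log2 fold change 1.40 ± 0.20, SE, n = 3 each, limma adjusted p = 0.00176). Its second probe ILMN_1216628, annotated to the same transcript, gave 2.54-fold (1.34 ± 0.20, adjusted p = 0.00216).

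Fhl2, a LIM-only protein abundant in heart that binds titin and serves as a transcriptional cofactor, had the largest log2 fold change of the 9 genes and ranked at position 20 from the top among 10287 genes. Raw signals of its probe ILMN_2770386 were 291, 270 and 299 intensity units in FRG1 samples V871, V873 and V874, against 76.4, 76.5 and 63.4 in WT samples V872, V906 and V923. The corresponding log2 values were 8.10, 7.75 and 7.94 in FRG1 muscle, against 5.62, 5.72 and 5.58 in WT muscle. The gap between the groups, 2.04 on the log2 scale, was the widest among the member probes, and the WT samples differed little from each other. Fhl2 was 4.90-fold higher (log2 fold change 2.29 ± 0.13, SE, n = 3 each, limma adjusted p = 1.09e-05). The probe was detected on all 3 WT arrays but was dim there, so its size depends on how background is handled. It was 1.73 with an offset of 50 and 2.74 in the authors' processed values on the log2 scale. The other Fhl2 probe, ILMN_2523289, was detected on no array, and no fold is given for it.

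Fhl1, the LIM-only protein of skeletal muscle that is mutated in reducing body myopathy and other X-linked myopathies, changed less. Its bright probe ILMN_2713285 read 14.51, 14.60 and 14.53 in FRG1 muscle, against 13.96, 13.72 and 14.27 in WT muscle. The groups did not overlap, and the FRG1 values (SD 0.05) were less scattered than the WT values (SD 0.28, n = 3 each). Fhl1 was 1.48-fold higher (log2 fold change 0.56 ± 0.15, SE, limma adjusted p = 0.0349), a call that was lost under 8 of 16 alternatives, among them each sample left out except WT sample V923 (limma adjusted p up to 0.124). The second Fhl1 probe, ILMN_2437254, annotated to another transcript of the gene, gave 0.59 ± 0.14 (adjusted p = 0.0194), but it was above background on 1 of the 3 WT arrays. Its value ran from 0.30 with an offset of 50 to 1.35 in the authors' processed values. Its call was lost in those values (limma adjusted p = 0.0620) and without FRG1 sample V871 (0.0853), FRG1 sample V874 (0.0626) or WT sample V906 (0.0642). The within-array difference of Fhl1 minus Fhl2 shifted by -1.73 ± 0.24 (SE) between FRG1 and WT muscle, without overlap (exact permutation p = 0.1, the smallest possible here).

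Windows before the starts of Fhl2 and Fhl1 are shown because the CArG box, the motif read by serum response factor, occurs in them and is rare elsewhere. They lie at chr1:43196762-43197011 and chr1:43163962-43164211 (minus strand) for the 2 starts of Fhl2 and at chrX:56779433-56779682 (plus strand) for 1 of the 2 starts of Fhl1, again 250 bases from RefSeq on GRCm38.p6. Capitals mark the CArG box.
Fhl2, upstream start: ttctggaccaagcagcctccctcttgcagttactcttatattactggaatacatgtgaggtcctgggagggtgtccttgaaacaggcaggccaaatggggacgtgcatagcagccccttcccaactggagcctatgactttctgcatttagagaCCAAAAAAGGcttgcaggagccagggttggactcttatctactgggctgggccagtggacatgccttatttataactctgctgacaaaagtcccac
Fhl2, downstream start: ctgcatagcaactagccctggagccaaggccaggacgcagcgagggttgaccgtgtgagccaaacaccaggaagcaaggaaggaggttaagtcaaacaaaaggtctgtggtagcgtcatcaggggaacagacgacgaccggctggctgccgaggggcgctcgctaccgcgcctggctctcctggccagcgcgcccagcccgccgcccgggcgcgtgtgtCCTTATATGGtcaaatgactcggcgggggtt
Fhl1: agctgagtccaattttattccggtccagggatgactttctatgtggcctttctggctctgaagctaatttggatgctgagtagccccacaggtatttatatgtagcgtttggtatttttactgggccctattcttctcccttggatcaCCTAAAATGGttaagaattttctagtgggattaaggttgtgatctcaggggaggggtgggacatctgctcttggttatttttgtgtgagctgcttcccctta
A CArG box began 96 bases before the upstream start and 31 bases before the downstream start of Fhl2, and 102 bases before this start of Fhl1. The window of the other Fhl1 start held 0. Of all 32851 windows 1.47% held a CArG box, and among the 9 members with a window these 2 genes held it, again counted per member and not per window. Neither MCAT nor the CArG box was in the windows of Csrp3 or Mustn1, which says only that these letters are not in those windows. Both Csrp3 windows did hold the E-box. Actn3 had no window in the table.

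Mustn1, a small nuclear protein of the musculoskeletal system that is expressed in regenerating muscle, read 11.88, 12.05 and 11.91 in FRG1 muscle, against 10.76, 10.48 and 10.82 in WT muscle. All FRG1 values exceeded all WT values by at least 1.06. Mustn1 was 2.40-fold higher (log2 fold change 1.26 ± 0.13, SE, n = 3 each, limma adjusted p = 0.000344), and 1.33 without WT sample V923.

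**Figure D2:**
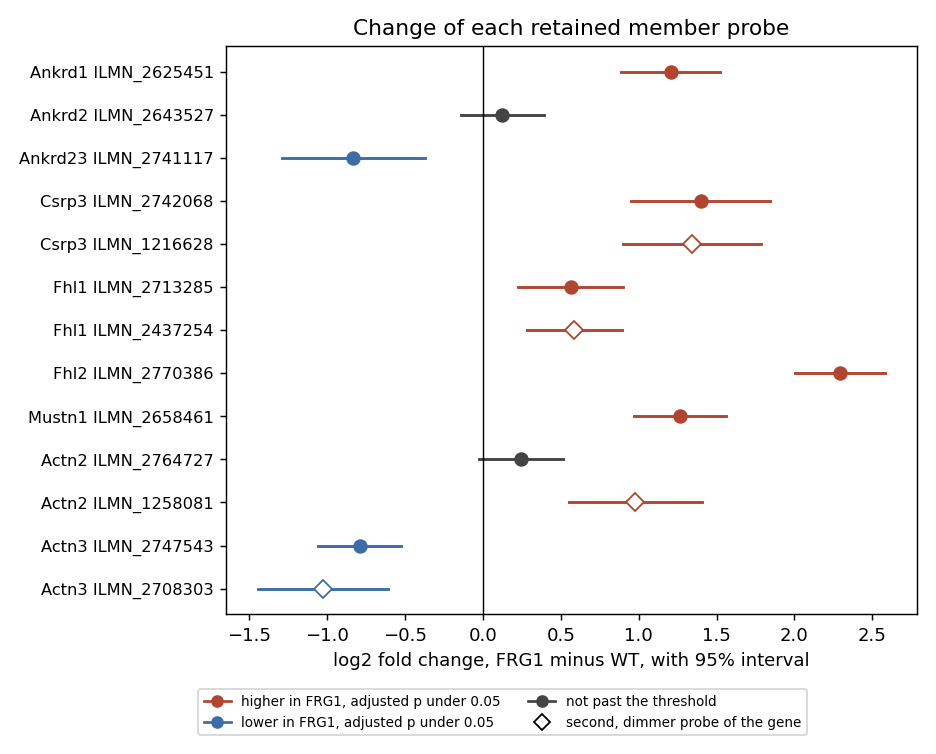
Log2 fold change of FRG1 minus WT (horizontal axis) with its 95% interval for the 13 retained member probes, 1 row per probe, coloured by the limma call, with open diamonds for the dimmer probe of a gene. The 2 probes of Csrp3, of Fhl1 and of Actn3 lie close together, whereas the 2 probes of Actn2 lie at 0.24 and 0.98.

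Alpha-actinins cross-link the thin filaments at the Z-disc. Actn3 is found in fast fibres and Actn2 in all fibres. The brighter Actn3 probe, ILMN_2747543, had raw signals of 9603, 13274 and 12098 intensity units in FRG1 muscle, against 21450, 19613 and 18274 in WT muscle. Its log2 values were 13.35, 13.58 and 13.52 in FRG1 muscle, against 14.23, 14.28 and 14.31 in WT muscle. The WT samples hardly differed, and every FRG1 value lay at least 0.64 below them. Actn3 was 1.73-fold higher in WT (log2 fold change -0.79 ± 0.12, SE, n = 3 each, limma adjusted p = 0.00238). The second probe, ILMN_2708303, read 11.50, 11.49 and 12.15 in FRG1 muscle, against 12.64, 12.93 and 12.66 in WT muscle, and gave -1.03 ± 0.19 (adjusted p = 0.00624).

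For Actn2 the 2 probes differed in their call. The bright probe ILMN_2764727, annotated to the RefSeq transcript, read 14.18, 14.14 and 14.13 in FRG1 muscle, against 14.04, 13.92 and 13.76 in WT muscle. The groups did not overlap, but the log2 fold change of 0.24 ± 0.12 (SE, n = 3 each) did not pass in limma (adjusted p = 0.219, 95% interval -0.03 to 0.51). The probe ILMN_1258081, annotated to a separate cDNA entry, read 6.98, 7.16 and 6.94 in FRG1 muscle, against 5.74, 6.52 and 5.88 in WT muscle. It passed upward at 0.98 ± 0.19 (adjusted p = 0.00903), a call lost with no detection filter (limma adjusted p = 0.0605) and in the authors' processed values (0.0528), though its raw signal was at most 187 intensity units on any array. Averaging the 2 probes brought Actn2 past the threshold (0.61, limma adjusted p = 0.00887). The within-array difference of Actn2 minus Actn3 shifted by 1.04 ± 0.14 (SE) between FRG1 and WT muscle, without overlap (exact permutation p = 0.1, the smallest possible here).

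**Figure D3:**
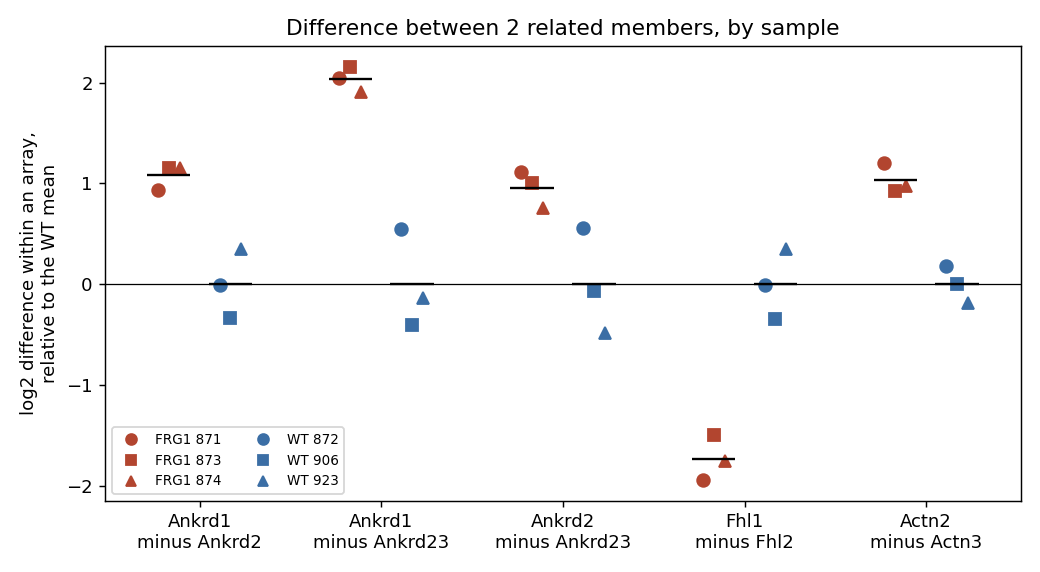
Log2 difference between 2 related members within each array (vertical axis, relative to the mean of the 3 WT samples) for 5 pairs, with 3 FRG1 samples left and 3 WT samples right of each position and the mean as a bar. The FRG1 samples lie above the WT samples in 4 pairs and below them for Fhl1 minus Fhl2, where the mean shift is -1.73.

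Over probes rather than genes, 8 of the 13 retained member probes were higher and 3 lower in FRG1 muscle, against 7.1% and 6.71% of all retained probes. The groups did not overlap for 12 of the 13, against 33.7% of all retained probes. Without the second Fhl1 probe, which passed the detection filter mainly through the FRG1 arrays, 7 of 12 probes were higher, 3 were lower and 11 did not overlap. These counts, too, are a description. Of the 7 genes that passed, 5 (Ankrd1, Csrp3, Fhl2, Mustn1 and Actn3) did so under all 16 alternatives tried, and Ankrd23 and Fhl1 did not. Without WT sample V923 the log2 fold changes were 1.25 for Csrp3, 2.26 for Fhl2 and 0.71 for Fhl1. They were -0.77 for Actn3, 0.17 for Actn2 and 0.06 for Ankrd2. Ankrd1, Mustn1 and Fhl1 thus grew in size without this sample, and the other members measured shrank.

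Genes related to the members but expressed outside the sarcomere or in other cells were read as a separate list. Some share only a LIM domain or ankyrin repeats with the members. With 8 measured, 0 rose and 1 fell, the focal adhesion protein Lpp (-0.55 ± 0.16, SE, limma adjusted p = 0.0451), which 2 of its 6 retained probes called and which lost the call under 11 of 16 alternatives. No gene of the list was lower with any sample left out other than WT sample V872. The list median was 0.04, a description that was not tested against the members. The non-muscle alpha-actinins Actn1 and Actn4 had log2 fold changes of -0.17 (95% interval -0.46 to 0.12) and 0.31 (0.04 to 0.58), and the LIM proteins Csrp1 and Csrp2 of -0.03 and 0.04. None of these 4 passed in limma, and they are named after their values were seen.

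Of 22 measured genes for other Z-disc proteins, members left out, 3 were higher and 1 was lower, with a median log2 fold change of -0.04. Over all genes tested 7.53% were higher and 7.23% lower, the shares to set beside this and every other list count. Myoz2, the calsarcin of slow fibres and heart, rose by 0.61 ± 0.11 (SE, limma adjusted p = 0.00666) on its brighter probe. Its other retained probe was also called higher, and the mean of the 2 rose by 1.14, so their sizes differ. Synpo2l rose by 0.60 ± 0.14 (adjusted p = 0.0234) and the small heat shock protein Cryab by 0.47 ± 0.13 (adjusted p = 0.0375), calls lost under 7 and 9 of 16 alternatives. The capping protein subunit Capza2 fell by 0.56 ± 0.15 (0.0300), a call lost under 7. Myoz1, the calsarcin of fast fibres, and the titin cap Tcap did not pass, with -0.12 (95% interval -0.41 to 0.17) and -0.18 (-0.44 to 0.08), and they too are named after their values were seen. With an offset of 50 in the background step, 3 of these genes were higher and 4 lower, and in the authors' processed values 1 was higher and 0 lower. The list also had 1 higher and 0 lower without FRG1 sample V871, V873 or V874 or WT sample V906, 2 higher and 1 lower without WT sample V872, and 2 of each without WT sample V923.

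In the costamere and integrin linkage list 1 of 16 genes was higher and 3 were lower, with a median of -0.05. Dmd, dystrophin, fell by 0.90 ± 0.16 (SE, limma adjusted p = 0.00620) on 1 of its 2 retained probes. The integrin-linked adaptor Lims1 rose by 0.91 ± 0.20 (0.0153, above background on 2 of 3 WT arrays), whereas its paralogue Lims2 fell by 0.46 ± 0.13 (0.0394) and paxillin, Pxn, by 0.46 ± 0.12 (0.0294). Of 10 M-band genes 1 was higher and 1 lower, with a median of -0.16. Myom3, a myomesin, rose by 0.59 ± 0.12 (0.00914), and Myom1 fell by 0.43 ± 0.11 (0.0313). The calls of Lims1, Lims2, Pxn, Myom3 and Myom1 were lost under 3 of 15 and under 8, 7, 1 and 8 of 16 alternatives. Lims1 was 0.54 with an offset of 50, and with detection required on all 6 arrays 0 of 14 costamere genes were higher. The costamere list had 1 lower without FRG1 sample V871, V873 or V874, 0 higher without V871, and 2 higher without WT sample V906. No M-band gene was lower with any 1 sample left out, and 0 were higher without FRG1 sample V873.

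**Figure D4:**
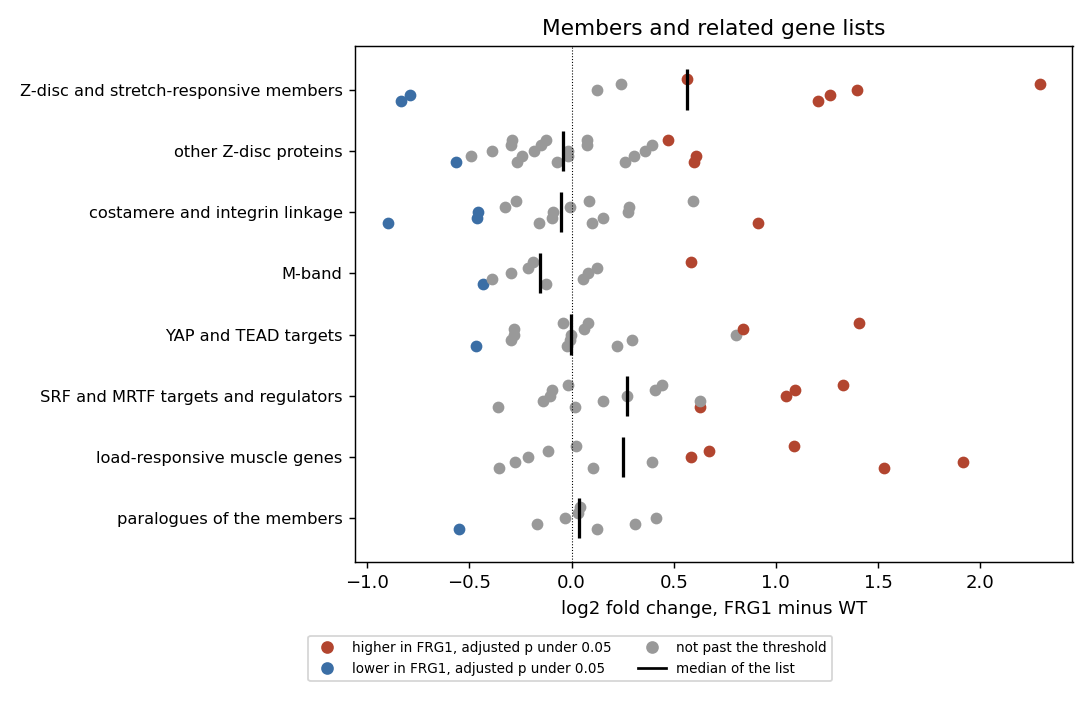
Log2 fold change of FRG1 minus WT (horizontal axis) of each measured gene of the members and of 7 related lists, 1 point per gene, coloured by the limma call, with the list median as a black bar. Medians lie between -0.16 and 0.04 for 5 of the lists and at 0.27 and 0.25 for the serum response factor and load-responsive lists, against 0.56 for the members.

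Genes linked to serum response factor (SRF) and its actin-sensing cofactors had 4 of 15 higher and 0 lower, with a median of 0.27. Abra, the actin-binding activator of SRF signalling in striated muscle, read 12.4 on average in FRG1 muscle against 11.1 in WT muscle and rose by 1.33 ± 0.18 (SE, limma adjusted p = 0.00149). Actc1, cardiac actin, which skeletal muscle makes during development, rose by 1.05 ± 0.14 (0.00104), and Fos by 1.09 ± 0.20 (0.00622). The call of Fos was lost under 1 of 16 alternatives. Mrtfb, an SRF cofactor, was above background on none of the WT arrays and was at least 1.40-fold higher (limma adjusted p = 0.0105). Mrtfb was retained through the FRG1 arrays alone and lost its call without FRG1 sample V873 (adjusted p = 0.0549), and with detection required on all 6 arrays 3 of 14 genes of the list were higher. Srf itself, at 0.02 (95% interval -0.28 to 0.32), and skeletal actin, Acta1, at -0.02 (-0.26 to 0.23), did not pass. Both were chosen after their values were seen. Acta1 had a mean log2 value of 14.7 in both groups, and whether so bright a signal was saturated was not tested.

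Of 15 targets and factors of the YAP and TEAD pathway, members left out, 2 were higher and 1 was lower, with a median of -0.002. Tead4, a TEAD factor induced in regenerating muscle, rose by 1.41 ± 0.15 (SE, limma adjusted p = 0.000380), and by 0.89 with an offset of 50. The matricellular protein Ccn2 rose by 0.84 ± 0.23 (0.0362) and Crim1 fell by 0.47 ± 0.12 (0.0298), calls lost under 7 of 16 alternatives for each. The list had 1 higher and 0 lower without FRG1 sample V871, FRG1 sample V873 or WT sample V906, 2 higher and 0 lower without FRG1 sample V874, and 1 of each without WT sample V923. Of 12 load-responsive genes 5 were higher and 0 lower, with a median of 0.25. Runx1, a transcription factor induced in denervated muscle, rose by 1.92 ± 0.28 (0.00210) and Atf3, a stress-induced factor, by 1.53 ± 0.29 (0.00827), each above background on 2 of 3 WT arrays. Runx1 was 1.29 with an offset of 50 and lost its call in the authors' processed values (3.28, limma adjusted p = 0.126), 1 of 15 alternatives. Atf3 was 1.00 with an offset of 50 and lost its call under 2 of 15. Hspb1, a small heat shock protein, rose by 1.09 ± 0.14 (0.00100) and the myostatin antagonist Fst by 0.58 ± 0.15 (0.0308, lost under 6). In the authors' processed values 1 load-responsive gene passed, and 2 did with no detection filter. Without FRG1 sample V871, FRG1 sample V873 or WT sample V872 the count was 3, and with detection required on all 6 arrays it was 3 of 10.

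Fibre type genes moved beside the members as follows. Of 11 slow fibre genes 4 were higher and 2 lower (median 0.28), led by Myl3, a slow myosin light chain, which fell by 1.40 ± 0.14 (SE, limma adjusted p = 0.000263), and slow troponin T, Tnnt1, which rose by 1.37 ± 0.17 (0.000893). The count of higher slow genes was 2 without FRG1 sample V871 or WT sample V872 and with no detection filter, and 1 in the authors' processed values, with 2 lower in each. Their summed signal, 42348 to 48921 in FRG1 and 43440 to 49972 in WT muscle, overlapped. In the fast fibre list, 0 of 11 rose and 2 fell (median 0.01), with Myh4 and Casq1 each at -0.45 ± 0.13 (0.0446 and 0.0465), lost under 8 and 7 of 16 alternatives. No fast fibre gene was lower without FRG1 sample V871, FRG1 sample V873, WT sample V872 or WT sample V906, and 1 was lower without FRG1 sample V874. Their summed signal also overlapped, at 186950 to 199880 in FRG1 and 183890 to 203580 in WT muscle. Pvalb, Tnnc2, Tnni2 and Myl1 weighed heavily in that sum, with mean log2 values of 14.6 to 14.7 in both groups. Whether such bright signals were saturated, so that a change would not show, was not tested. All measured slow and fast markers with a probe were detected on at least 1 array. The part of fibre composition in the values of Actn3, Csrp3 and Ankrd2 was not tested.

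Several members are also made by heart, smooth muscle, tendon or immature muscle cells, and markers of other cells moved too. Of 11 macrophage markers 9 were higher and 0 lower, with a summed signal of 4736 to 6094 in FRG1 muscle against 2307 to 2595 in WT muscle, led by Lgals3 (2.59 ± 0.17, SE, limma adjusted p = 2.13e-05) and Ctss (1.03 ± 0.14, 0.00130), and 1 marker, Itgam, was detected on no array. The macrophage count was 5 without FRG1 sample V873, and 6 without FRG1 sample V871 and in the authors' processed values. Of 8 tendon and junction markers 0 were higher and 6 lower, with a sum of 3255 to 4188 in FRG1 against 5808 to 6909 in WT muscle, led by Tnmd (-0.89 ± 0.13, 0.00178) and Mkx (-0.62 ± 0.13, 0.0104), with Thbs4 detected on no array. The tendon count was 2 without FRG1 sample V871 or WT sample V906, with no detection filter and in the authors' processed values, and 3 without FRG1 sample V874. Mkx lost its call under 1 of 16 alternatives, that with median scaling (limma adjusted p = 0.0710). Among markers of smooth muscle or pericytes, 0 of 11 rose and 3 fell (sum 6823 to 7486 in FRG1, 7855 to 9596 in WT muscle), with Abcc9 at -0.92 ± 0.14 (0.00238), Mylk at -0.78 ± 0.13 (0.00361) and Cnn1 detected on no array. Between 2 and 5 of them were lower over the alternatives, and Abcc9, called on 2 of 3 probes, was -0.61 when these were averaged. Endothelial markers had 0 of 12 higher and 3 lower (sum 7542 to 9493 in FRG1, 10447 to 11352 in WT muscle), with Cldn5 at -0.76 ± 0.18 (0.0209) and Eng at -0.57 ± 0.14 (0.0275), each lost under 7 of 16 alternatives. No endothelial marker was lower without FRG1 sample V871, with median scaling, with no detection filter or in the authors' processed values, and 1 was without FRG1 sample V873 or WT sample V872, V906 or V923.

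Of 10 fibroblast markers 1 was higher and 1 lower, Mfap5 (0.86 ± 0.18, SE, limma adjusted p = 0.0134) and Col1a1 (-0.62 ± 0.18, 0.0443), with overlapping sums of 22080 to 27080 in FRG1 and 24969 to 29588 in WT muscle. Their calls were lost under 5 and 9 of 16 alternatives. No fibroblast marker passed without FRG1 sample V871, FRG1 sample V873 or WT sample V906, 1 was higher and 0 lower without FRG1 sample V874 or WT sample V872, and 1 was higher and 2 lower without WT sample V923. Of 6 satellite cell and myoblast markers 1 was higher and 0 lower (sum 5438 to 5975 in FRG1, 4602 to 5760 in WT muscle). This was Myog, above background on none of the WT arrays, with a bound of 1.64-fold higher at the offset of 16. Its log2 fold change (limma adjusted p = 0.00633) was as low as 0.41 over the alternatives. Pax7 and Calcr were detected on no array. Myog was retained through the FRG1 arrays alone, and with detection required on all 6 arrays 0 of 5 of these markers were higher. Without WT sample V923 the count was 2. Of 5 cardiac and atrial genes 3 were higher and 0 lower, with a sum of 2936 to 4138 in FRG1 against 648 to 752 in WT muscle. They were led by Myl4 (2.96 ± 0.16, adjusted p = 8.19e-06) and the natriuretic peptide Nppb. Nppb was above background on none of the WT arrays, with a bound of 3.09-fold higher at the offset of 16. Its log2 fold change (limma adjusted p = 0.000442) was as low as 1.21 over the alternatives. The defining genes Myh6 and Myl7 were detected on no array. Nppb, too, was retained through the FRG1 arrays alone, and with detection required on all 6 arrays 2 of 3 were higher. Without FRG1 sample V871 or V873 2 cardiac genes were higher, and without WT sample V906 2 were higher and 1 lower. Myl4 makes up most of the sum, with mean log2 values of 11.6 in FRG1 and 8.65 in WT muscle. Tnnt2 came next, at 8.08 and 7.48. The part of these cell types in the values of the members was not tested.

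The genes whose 6 values, each centred on its own mean, lay nearest to those of a member were listed as a description. For Ankrd1 these were Gga2, Tceal5 and Paqr7, with root mean square differences of 0.058, 0.085 and 0.090 on the log2 scale over 6 samples. For Csrp3 they were Fndc10 (0.124), Gsdme (0.144) and Serpinb6a (0.177). For Actn3 they were Anapc5 (0.033), Pln (0.043), which encodes phospholamban, an inhibitor of the calcium pump of slow muscle and heart, and Dym (0.046). The 6 samples fall into 2 separate groups, and these genes had log2 fold changes near those of the member, such as Gga2 at 1.15 beside 1.21 for Ankrd1, and Pln at -0.75 beside -0.79 for Actn3.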

How the data were processed

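RNA of 6 vastus lateralis samples was measured on Illumina mouse bead arrays, 1 array each. Per the labels' protocols, a kit for fibrous tissue yielded the RNA, which was DNase-treated and labelled as biotinylated cRNA. Per the file headers, the authors deposited signal intensity per probe, not normalized, with its detection p-value, and a second table of processed intensity values. Per the submitters' processing notes lumi was used, with version and settings not given in the sources used here. In the processed table between 33.7% and 33.9% of values lie below 0 and column medians lie between 5.07 and 5.15, so the scale is linear after background subtraction, whose size is unknown. It served as an alternative, with values floored at percentile 1 of those above 0 before log2.

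Background correction and quantile normalization used the neqc function (limma 3.58.1, R 4.3.3; offset 16, controls inferred from detection p) and gave log2 values. Retained probes were fitted with lmFit and eBayes, with a single group term. Tests were two-sided, with Benjamini-Hochberg adjustment across all 19563. Log2 fold changes are FRG1 minus WT, and the offset understates those of dim probes. A gene was read by its retained probe with the highest mean. Where a probe was above background on no array of a group, a bound is given, the brighter group's mean against, per array, the higher of the lowest detected signal and the probe's own value. The bound holds at the offset of 16 only, and the limma p printed with it tests the log2 fold change, not the bound. The number of arrays limits the precision.

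Names came from the platform annotation, updated through Entrez IDs to RefSeq (GRCm38.p6, 29921 probes matched). Of all probes 29976 had 1 symbol, 10 several and 16646 none, and those with several were not named. The arrays name no genome build, so coordinates are given only for RefSeq promoter windows. The members, gene lists and tests were chosen with earlier results of these data known. Genes named are all members, up to 4 called genes with the smallest p from each related list and up to 2 from each marker list, and the 3 nearest profiles of Ankrd1, Csrp3 and Actn3. Sequence windows and other names were chosen after values were seen. The fit was also run on simulated data with independent noise for each probe, which says nothing about effects of array or litter in these samples.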

Additional observations from a re-analysis of the deposited data

How the results depend on the processing

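Alternatives were another scaling (median or cyclic loess), background step (none, or an offset of 50), detection filter (none, or all 6 arrays), variance model, array weights, the authors' processed values, probe averaging, and each sample left out. None of the 9 member genes changed direction under any of the 16. Between 4 and 6 member genes were higher, 4 to 5 with 1 sample left out. The count of lower member genes was 1 in place of 2 with no detection filter and in the authors' processed values, where Ankrd23 lost its call (limma adjusted p = 0.122 and 0.0943), and 1 to 2 with 1 sample left out. Probes past the threshold numbered 2702 and 1502 in the authors' processed values, and 1330 to 2696 with 1 sample left out, the fewest without FRG1 sample V873 and 1334 without FRG1 sample V871. With median scaling, where the median over all retained probes was 0.10 in place of -0.02 (log2 fold change), 79.1% of calls were higher, against 51.4%, and Fhl1 lost its call (0.49, adjusted p = 0.0762) while the other 6 called members kept theirs. The within-array shifts kept their direction under all 11 alternatives run for each. No paired analysis was possible because the groups share no sample number. Bead arrays limit dim probes: the sizes for Fhl2 in WT muscle, the second Fhl1 probe and the second Actn2 probe rest on signals close to background.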
